A study of Mus musculus with 41 samples.

Results

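Hippo signalling restrains growth through a kinase chain that ends on a pair of transcriptional coactivators. Membrane-associated proteins switch on the MST kinases, these switch on the LATS kinases, and LATS phosphorylates YAP and TAZ so that they are held in the cytoplasm. Unphosphorylated YAP and TAZ enter the nucleus and work with TEAD factors, which bind DNA, on target genes such as Cyr61 and Ctgf. The 10 genes described here were taken by name from GENCODE M21 symbols, out of 55536 gene identifiers in the count tables. They are the upstream FERM-domain genes Frmd6 and Nf2, the kinases Lats1 and Lats2, the angiomotin-like gene Amotl2, the coactivators Yap1 and Wwtr1 (which encodes TAZ), and the target genes Cyr61, Ctgf and Ankrd1. The annotation calls Cyr61 and Ctgf Ccn1 and Ccn2. Frmd6 was selected from its values in these data, so its values are given as a description with no test. A further 46 Hippo pathway genes were listed by role and read alongside.

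The study, in C57BL/6 mice, concerns RHOX10, a homeobox transcription factor of the germline. RNA-seq was made from cells of the testis sorted for the germ cell reporter OCT4-eGFP, from 4 wild-type and 4 Rhox10-null pools, each of 3 animals, whose age the labels do not give. The libraries of the second group are called the libraries labelled null, because the Rhox10 count did not separate them, at 3 to 10 in wild-type and 4 to 11 in theirs. iSLAM-seq, which follows RNA in time after a factor is switched on, used germline stem (GS) cells cultured from testes of P0-P1 mice. In all these cells Rhox10 had been knocked down with an shRNA lentivirus and the GFP-positive cells sorted. They then received a lentivirus for the fusion Rhox10-ERT2-mCherry, whose activity responds to 4-hydroxytamoxifen, or for ERT2-mCherry alone (Ctrl). There were 2 libraries per vector at 0, 0.5, 1, 2, 4 and 8 h. Rhox10 had 2 to 27 counts in the 12 Ctrl libraries and 353 to 540 in the 12 Rhox10 libraries. CUT&Tag, which cuts DNA where an antibody sits, compared GS cells with knocked-down Rhox10 that carried HA-tagged Rhox10 with cells carrying an empty HA vector and with an IgG control, 3 libraries each. Viral vectors and knockdown are thus shared by every GS cell group, and the fusion is present in the Rhox10 libraries before 0 h.

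The RNA-seq libraries held 6602089 to 8278887 counts, of which the single gene Gm42418 took 50.98% to 59.37%. The iSLAM-seq libraries held 9419615 to 12645845 counts. The Ctrl pair at 0.5 h stood apart. Its chi-square per degree of freedom was 30.02, against 2.637 to 4.688 in the other 11 pairs, and several of the genes below were low in its replicate 2. Calls of the 10 genes that depend on that library are named below. Germ cell markers were present throughout, at a summed CPM (library-scaled counts, the unit used below) of 2385.5 to 3167.8 in the GS cells and at 273.61 to 283.82 CPM in wild-type sorted cells against 127.16 to 140.99 CPM in those labelled null. Markers of peritubular cells and fibroblasts were also present, at 995.31 to 2020.1 CPM in the GS cells. In the sorted cells these markers stood at 444.91 to 469.38 CPM in wild-type libraries and 704.07 to 744.23 CPM in those labelled null. Of the 8 tested, 7 were higher in the latter, as were 18.6% of all genes tested. Erythroid markers rose from 1.3567 to 4.0685 CPM in wild-type libraries to 78.314 to 86.751 CPM in those labelled null. The part of these cell types in the results below was not tested. In bulk samples fewer cells of a type and less RNA per cell cannot be told apart.

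Frmd6 (ENSMUSG00000048285, GRCm38 chromosome 12, 70825514 to 70902234, plus strand) encodes a FERM-domain protein related to fly Expanded, an upstream regulator of the pathway. In the wild-type libraries its RNA-seq level was 22.6, 20.2, 19.8 and 20.5 CPM. In the libraries labelled null it was 11.6, 12.1, 11.9 and 13.1 CPM. Every library labelled null lay below every wild-type library. Frmd6 was chosen with such values known, and 37.5% of all 13538 genes tested were called between the labels (adjusted p under 0.05). The log2 fold change was -0.78 ± 0.090 (SE, n = 4 pools each) with composition scaling, -0.43 with library totals alone, and 0.084 when libraries were scaled to germline genes. These scalings moved the median of all genes to 0.35 and 0.86. The split of calls went from 2518 higher and 2553 lower to 7189 and 639 and to 12046 and 76. A change of scaling shifts all genes nearly alike, so the place of Frmd6 below the median gene was bound to stay. The direction of its own fold change depended on the scaling.

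In the GS cells the Frmd6 level went up and down again within 8 h in the Rhox10 libraries, while in Ctrl it climbed slowly. The Ctrl libraries had 45.6 and 42.1 CPM at the start, after 0.5 h 54.0 and 40.7, after 1 h 57.8 and 53.7, after 2 h 63.4 and 64.9, after 4 h 71.0 and 71.8, and after 8 h 71.1 and 66.5. The Rhox10 libraries had 54.1 and 66.2 CPM at the start, after 0.5 h 53.1 and 59.1, after 1 h 80.8 and 86.9, after 2 h 106.2 and 121.3, after 4 h 81.3 and 77.9, and after 8 h 48.0 and 38.4. The Rhox10 pair lay above the Ctrl pair at 0, 1, 2 and 4 h, overlapped it at 0.5 h, and lay below it at 8 h. The log2 difference between vectors was 0.45 ± 0.13 (SE, n = 2 libraries each) at 0 h, 0.82 ± 0.13 at 2 h and -0.67 ± 0.13 at 8 h. From 0 to 8 h Frmd6 moved by -0.48 ± 0.13 with Rhox10-ERT2 and by 0.65 ± 0.13 with Ctrl. Among the genes whose log2 CPM ran most like that of Frmd6 over the 24 libraries, out of 5563 that varied by at least 1 log2 unit, were Sox9 (Pearson r 0.90), Prag1 (0.90), Spry2 (0.90) and Fnip2 (0.89). These values describe libraries that share cells and time points. Sox9, a transcription factor that also marks Sertoli cells, went from 239.9 to 530.3 CPM between 0 and 2 h and to 225.5 CPM at 8 h with Rhox10-ERT2, and from 214.9 to 408.4 CPM between 0 and 8 h with Ctrl. Of 7 Sertoli markers, Sox9 among them, 4 to 6 had counts in each iSLAM-seq library, and Amh had no count in any. They summed to 182.03 to 552.64 CPM, nearly all of it Sox9. At 2 h with Rhox10-ERT2, for example, the sum was 542.61 and 552.64 CPM and Sox9 alone had 524.6 to 536.0 CPM. In sorted cells the 7 summed to 402.8 to 423.12 CPM in wild-type and 463.81 to 477.82 CPM in libraries labelled null. Of the other 9 Hippo genes the nearest to Frmd6 were Amotl2 (0.51) and Ctgf (0.48).

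**Figure D1:**
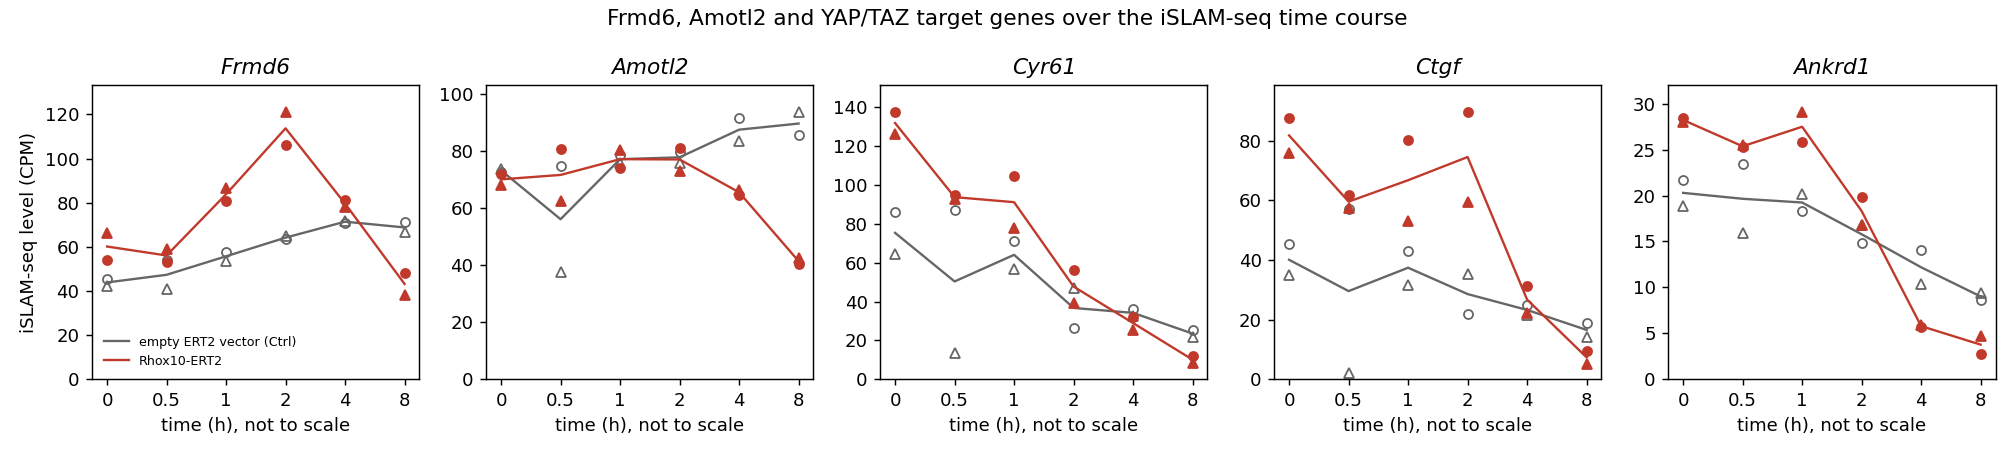
iSLAM-seq levels (CPM, vertical axis from 0) of Frmd6, Amotl2, Cyr61, Ctgf and Ankrd1 against time in hours (spaced evenly). Grey open symbols are Ctrl libraries, red filled symbols Rhox10 libraries, circles replicate 1, triangles replicate 2, and lines join the means. Frmd6 peaks at 2 h with Rhox10-ERT2, and by 8 h all 5 genes lie below Ctrl, while the low Ctrl triangle at 0.5 h is the library that stands apart.

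CUT&Tag peaks of RHOX10, each with a score given by the authors, lay within 3 kb of the start site of 5 of the 10 genes: Frmd6, Nf2, Lats2, Amotl2 and Wwtr1. Of all genes tested in iSLAM-seq 19.8% had such a peak, and of the 46 other pathway genes 16 did. No peak was assigned to Cyr61, Ctgf, Ankrd1, Lats1 or Yap1 at any distance. The Frmd6 peak (mm10 chromosome 12, 70824866 to 70825488) had the highest score of the 5, 413.3, rank 500 among 5147 peaks. Nf2 (334.9) and Wwtr1 (291.8) also lay above the median score of 127.5, and Amotl2 (122.8) and Lats2 (45.13) below it. The centres of 4 peaks lay in promoters and the Amotl2 centre in its first intron, by the authors' annotation. The Frmd6 centre was 337 bases upstream of its start site. It was also 168 bases downstream of the start of Gm40437, a divergent lincRNA on the minus strand, which had at most 1 count in any library. The Lats2 centre was 75 bases downstream of a Lats2 start and 73 downstream of one of Gm49361, a protein-coding gene on the same strand. That peak cannot be assigned to Lats2 alone.

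The sequence at the centre of the Frmd6 peak is shown because Frmd6 had the highest score of the 5. The 250 bases upstream of the RefSeq start sites of Cyr61 and Ankrd1 are shown too. These targets were called lower at 8 h than at 0 h in both vectors and had no peak. Sequences are from RefSeq for GRCm38.p6, 5′ to 3′ on the strand of the gene, at chr12:70825028-70825327 (plus), chr3:145649986-145650235 (minus) and chr19:36119845-36120094 (minus). Capitals mark the TEAD element CATTCC or its reverse complement GGAATG. In Frmd6 alone they also mark the homeodomain core TAAT, here as its reverse complement ATTA.
Frmd6 peak: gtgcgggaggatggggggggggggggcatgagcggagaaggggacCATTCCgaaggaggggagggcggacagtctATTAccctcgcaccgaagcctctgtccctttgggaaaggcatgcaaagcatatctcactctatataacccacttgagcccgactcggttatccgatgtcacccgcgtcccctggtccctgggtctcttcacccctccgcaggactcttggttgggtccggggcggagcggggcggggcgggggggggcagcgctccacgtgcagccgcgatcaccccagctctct
Cyr61 upstream: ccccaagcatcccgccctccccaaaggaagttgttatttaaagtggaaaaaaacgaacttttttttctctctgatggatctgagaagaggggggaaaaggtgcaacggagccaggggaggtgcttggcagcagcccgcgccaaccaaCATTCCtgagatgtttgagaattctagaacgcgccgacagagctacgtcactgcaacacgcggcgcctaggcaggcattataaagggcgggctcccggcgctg
Ankrd1 upstream: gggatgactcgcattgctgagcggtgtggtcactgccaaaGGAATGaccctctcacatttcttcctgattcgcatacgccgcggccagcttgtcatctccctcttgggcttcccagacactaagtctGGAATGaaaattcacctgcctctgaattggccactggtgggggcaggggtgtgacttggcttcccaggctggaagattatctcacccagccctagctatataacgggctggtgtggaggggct
The Frmd6 window held 1 CATTCC and 1 TAAT, on either strand, and 65.7% G and C. CATTCC occurred in 9.1% and TAAT in 26.8% of 5143 peak windows of 300 bases. Upstream of Cyr61 CATTCC began 103 bases before the RefSeq start site, and upstream of Ankrd1 GGAATG began 210 and 123 bases before it. Of 27025 upstream windows of 250 bases 12.6% held CATTCC and 55.3% TAAT, which each of these 2 windows held once. Among the 9 genes found in the promoter table, Amotl2, Yap1 and Wwtr1 also held CATTCC once upstream. The Ankrd1 and Amotl2 windows lie inside the GENCODE extents printed below, because their RefSeq start sites lie downstream of the GENCODE ones. A match of these letters describes the window and shows no binding.

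Nf2 (ENSMUSG00000009073, chromosome 11, 4765845 to 4849536, minus strand) encodes Merlin, the FERM-domain scaffold that promotes LATS activation. Its RNA-seq level was 16.5, 20.9, 18.3 and 22.3 CPM in wild-type and 23.5, 26.2, 25.1 and 24.2 CPM in the libraries labelled null, with no overlap. The log2 fold change was 0.34 ± 0.082 (SE, edgeR quasi-likelihood adjusted p = 0.00121). Over the whole course in GS cells Nf2 ranged from 74.0 to 96.7 CPM with Rhox10-ERT2 and from 89.8 to 107.3 CPM with Ctrl. Averaged over 0.5 to 8 h it was lower with Rhox10-ERT2, by a log2 difference of -0.21 ± 0.043 (SE, adjusted p = 4.35e-04), which became 0.017 when libraries were scaled to germline genes. Frmd6 and Nf2, the 2 FERM-domain genes, thus differed between genotypes in opposite directions under composition scaling.

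Lats1 and Lats2 encode the kinases that phosphorylate YAP and TAZ. Lats1 (ENSMUSG00000040021, chromosome 10, 7681214 to 7716460, plus strand) had 26.5, 27.2, 29.5 and 28.8 CPM in wild-type and 32.4, 34.0, 31.5 and 31.5 CPM in libraries labelled null. The groups did not overlap, and the log2 fold change was 0.21 ± 0.066 (SE, adjusted p = 0.0106), although the adjusted p was 0.0539 without wild-type replicate 1. In the GS cells Lats1 averaged 0.32 ± 0.084 higher (log2, SE) with Rhox10-ERT2 (adjusted p = 0.00406). At 8 h its libraries had 29.6 and 24.3 CPM with Rhox10-ERT2 and 19.8 and 14.3 CPM with Ctrl. Lats2 (ENSMUSG00000021959, chromosome 14, 57689662 to 57758388, minus strand) overlaps Gm49361 on the same strand, so reads of the pair may not be separable. Its wild-type levels of 10.04 to 12.5 CPM and its levels of 9.82 to 14.9 CPM in libraries labelled null overlapped, and the log2 fold change of 0.17 ± 0.12 (SE) did not pass (adjusted p = 0.255). With Rhox10-ERT2 Lats2 fell from 46.8 and 60.0 CPM at 0 h to 33.8 and 34.0 CPM at 8 h, a log2 change of -0.65 ± 0.19 (SE, adjusted p = 0.0332). With Ctrl it went from 37.1 and 48.3 CPM to 35.7 and 31.6 CPM, a change of -0.34 ± 0.19 that did not pass (adjusted p = 0.323), and the test of the difference between vectors in change from 0 h did not pass (adjusted p = 0.685).

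Amotl2 (ENSMUSG00000032531, chromosome 9, 102716672 to 102733418, plus strand) encodes an angiomotin-family protein that binds YAP at junctions and is itself a known YAP target. Its RNA-seq level was 36.1, 40.2, 41.2 and 39.3 CPM in wild-type and 44.0, 47.0, 46.5 and 47.0 CPM in libraries labelled null, with no overlap. The log2 fold change was 0.23 ± 0.059 (SE, adjusted p = 0.00157). In the GS cells the vectors began level, with 72.8 and 73.7 CPM for Ctrl and 72.1 and 68.1 CPM for Rhox10-ERT2 at 0 h. They parted late: at 4 h Ctrl had 91.6 and 83.4 CPM and Rhox10-ERT2 64.6 and 66.5, and at 8 h Ctrl had 85.5 and 93.8 CPM and Rhox10-ERT2 40.4 and 42.4. The difference at 8 h was -1.11 ± 0.18 (log2, SE, adjusted p = 1.46e-04). The change of the vector difference from 0 to 8 h was -1.05 ± 0.26, and the F-test of change over all later times passed (adjusted p = 0.0159). That call rests on few libraries: the adjusted p was 0.0543 and 0.101 without Ctrl 8 h replicate 1 and 2, and 0.119 and 0.0979 without Rhox10 8 h replicate 1 and 2, while the change stayed between -1.08 and -0.97. Without Ctrl 0.5 h replicate 2, where Amotl2 had 37.5 CPM against 74.7 in its pair, the adjusted p was 1.21e-09.

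Yap1 (ENSMUSG00000053110, chromosome 9, 7931999 to 8004596, minus strand) and Wwtr1 (ENSMUSG00000027803, chromosome 3, 57455649 to 57575910, minus strand) encode the coactivators on which the pathway acts. Yap1 overlaps the antisense transcript Gm20416, and whether counting used strand is not stated. Wwtr1 had 25.9, 23.0, 25.1 and 26.0 CPM in wild-type and 22.5, 18.9, 21.7 and 21.3 CPM in libraries labelled null, and was the only gene of the 8 tested that was called lower under composition scaling. Its log2 fold change was -0.24 ± 0.077 (SE, adjusted p = 0.0116), but 0.10 with library totals and 0.62 with germline scaling, and the adjusted p was 0.0563 without null replicate 2. Yap1 had 50.2 to 57.0 CPM in wild-type and 45.3 to 53.6 CPM in libraries labelled null, and its change of -0.12 ± 0.059 did not pass (adjusted p = 0.115), was 0.23 and 0.75 under the same 2 scalings, and passed without null replicate 3 (adjusted p = 0.0324). In the GS cells both coactivators were higher with Rhox10-ERT2 from the start and stayed so. At 0 h Wwtr1 had 215.8 and 201.4 CPM with Rhox10-ERT2 against 160.9 and 143.9 CPM with Ctrl, a log2 difference of 0.45 ± 0.082 (SE, adjusted p = 6.95e-04). At 8 h it had 187.3 and 189.8 against 147.6 and 143.9 CPM, and the Rhox10 pair lay above the Ctrl pair at all 6 times. Yap1 had 113.2 and 130.8 CPM against 88.1 and 96.3 CPM at 0 h, a difference of 0.40 ± 0.15 that did not pass (adjusted p = 0.0816). Leaving out either Ctrl library at 0.5 h, in whose replicate 2 Yap1 had 56.7 CPM against 98.9 in its pair, brought that adjusted p to 6.13e-05 (without replicate 2) or 8.2e-05 (without replicate 1). Averaged over 0.5 to 8 h both passed, Yap1 at 0.41 ± 0.066 (adjusted p = 2.6e-05) and Wwtr1 at 0.38 ± 0.037 (adjusted p = 1.66e-08). Neither passed the F-test for a change of the difference from 0 h (adjusted p = 0.848 and 0.793).

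**Figure D2:**
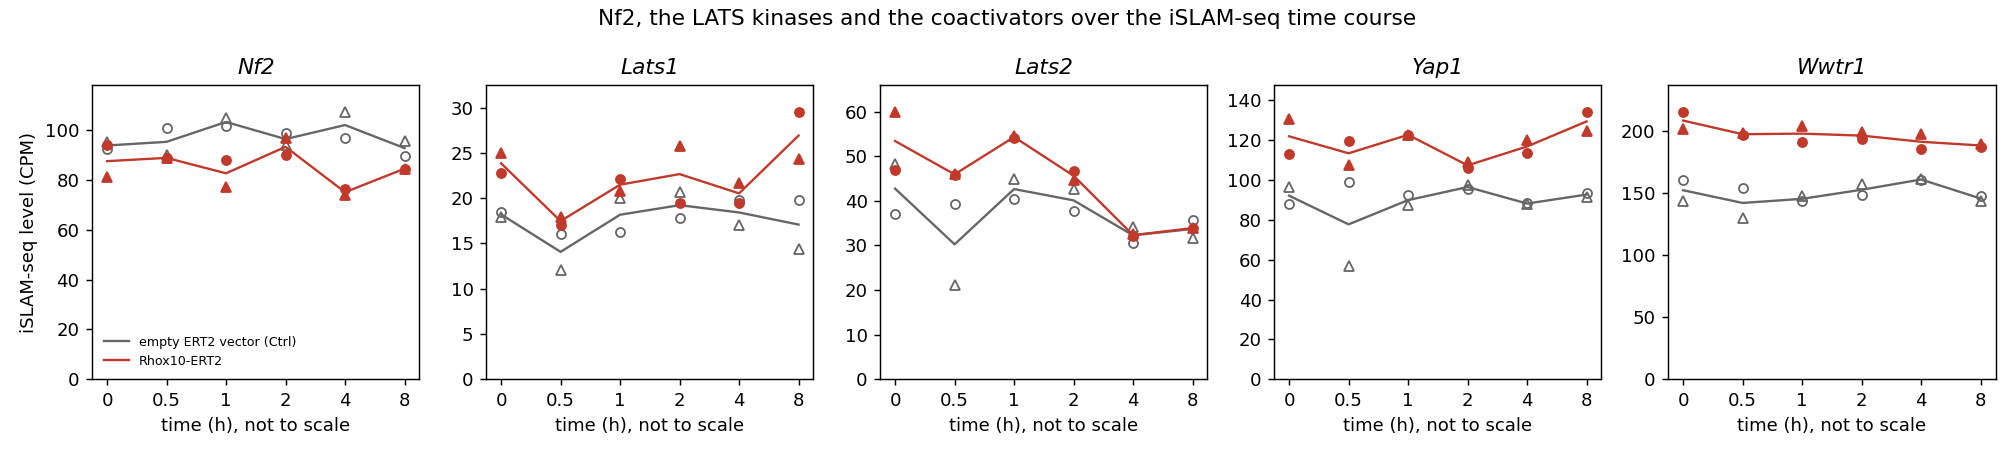
iSLAM-seq levels (CPM, vertical axis from 0) of Nf2, Lats1, Lats2, Yap1 and Wwtr1 against time in hours (spaced evenly), with symbols as for the moving genes: grey open Ctrl, red filled Rhox10, circles replicate 1, triangles replicate 2, lines joining means. Wwtr1 is at 185.6 CPM or more in each Rhox10 library and at 161.5 CPM or less in each Ctrl library, a gap present at 0 h.

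With Rhox10-ERT2 all 3 target genes were called lower at 8 h than at 0 h, and with Ctrl Cyr61 and Ankrd1 were and Ctgf was not. Cyr61 (ENSMUSG00000028195, chromosome 3, 145646976 to 145649981, minus strand) encodes a secreted matricellular protein. With Rhox10-ERT2 it had 137.8 and 126.1 CPM at the start, after 0.5 h 95.0 and 92.6, after 1 h 104.7 and 77.7, after 2 h 56.3 and 39.2, after 4 h 32.3 and 25.6, and after 8 h 11.7 and 8.42. With Ctrl it had 86.4 and 64.4 CPM at the start, after 0.5 h 87.2 and 13.5, after 1 h 71.4 and 56.8, after 2 h 26.3 and 47.1, after 4 h 36.0 and 32.4, and after 8 h 25.4 and 21.6. The pairs did not overlap at 0 h or at 8 h, with the Rhox10 pair above at the first and below at the second. Within the vectors the change from 0 to 8 h was -3.72 ± 0.49 (log2, SE, adjusted p = 1.4e-05) with Rhox10-ERT2 and -1.68 ± 0.44 (adjusted p = 0.0224) with Ctrl.

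Ctgf (ENSMUSG00000019997, chromosome 10, 24595442 to 24598683, plus strand), a related matricellular gene, overlaps the antisense transcript Gm15270. With Rhox10-ERT2 it had 87.6 and 76.0 CPM at the start, after 0.5 h 61.8 and 57.5, after 1 h 80.3 and 53.3, after 2 h 89.8 and 59.4, after 4 h 31.2 and 22.2, and after 8 h 9.54 and 5.13. With Ctrl it had 45.4 and 34.8 CPM at the start, after 0.5 h 57.1 and 2.05, after 1 h 43.2 and 31.7, after 2 h 21.7 and 35.4, after 4 h 24.8 and 21.7, and after 8 h 18.9 and 14.2. As for Cyr61, the Rhox10 pair lay above the Ctrl pair at 0 h and below it at 8 h. Its change from 0 to 8 h was -3.49 ± 0.66 (log2, SE, adjusted p = 0.00134) with Rhox10-ERT2 and -1.27 ± 0.60 with Ctrl, which did not pass (adjusted p = 0.240) but did without Ctrl 0.5 h replicate 2 (adjusted p = 4.47e-07).

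Whether the changes of Cyr61 and Ctgf differed between the vectors turned on the Ctrl libraries at 0.5 h. The difference between vectors changed from 0 to 8 h by -2.04 ± 0.65 for Cyr61 and -2.21 ± 0.89 for Ctgf (log2, SE), and the F-test with all libraries did not pass (adjusted p = 0.370 and 0.545). Without Ctrl 0.5 h replicate 2 the changes were -2.04 ± 0.24 and -2.22 ± 0.29, and both passed (adjusted p = 8.5e-09 and 7.81e-10). With all 4 libraries of 0.5 h left out they were -2.03 and -2.21 (adjusted p = 3.32e-07 and 1.1e-07). The 0 h differences behaved likewise: 0.81 ± 0.41 for Cyr61 and 1.03 ± 0.56 for Ctgf did not pass with all libraries (adjusted p = 0.237 and 0.279) and did without replicate 2 (adjusted p = 4.13e-06 and 1.42e-06).

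Ankrd1 (ENSMUSG00000024803, chromosome 19, 36111961 to 36120099, minus strand) encodes a nuclear ankyrin-repeat protein. With Rhox10-ERT2 it had 28.4 and 28.01 CPM at the start, after 0.5 h 25.2 and 25.5, after 1 h 25.9 and 29.1, after 2 h 19.8 and 16.8, after 4 h 5.68 and 5.89, and after 8 h 2.80 and 4.74. With Ctrl it had 21.7 and 18.8 CPM at the start, after 0.5 h 23.4 and 15.9, after 1 h 18.3 and 20.2, after 2 h 14.8 and 16.8, after 4 h 14.0 and 10.4, and after 8 h 8.67 and 9.36. The pairs crossed between 2 and 4 h. The 0 h difference of 0.48 ± 0.19 (log2, SE) did not pass (adjusted p = 0.127). Its change from 0 to 8 h was -2.89 ± 0.23 (log2, SE, adjusted p = 5.88e-09) with Rhox10-ERT2 and -1.17 ± 0.21 (adjusted p = 0.00103) with Ctrl. The difference between vectors changed by -1.72 ± 0.31, and the F-test passed with every library in the fit (adjusted p = 5.86e-04) and with any 1 of the 24 left out (adjusted p at most 0.00333). In the sorted cells Ankrd1 had 0 counts in all 4 wild-type libraries and 1, 0, 0 and 2 counts in those labelled null. It was therefore not fitted there, and an exact two-sided permutation test over the 8 libraries gave p = 0.429, the smallest this design allows being 0.0286.

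Cyr61 had 109.5, 114.3, 104.4 and 108.3 CPM in wild-type and 106.6, 105.3, 110.3 and 116.0 CPM in libraries labelled null, which overlap, and its log2 fold change was 0.0043 ± 0.048 (adjusted p = 0.957), or 0.35 and 0.87 with library totals and germline scaling. Ctgf had 8.72, 8.74, 9.49 and 9.90 CPM in wild-type and 10.5, 10.99, 11.9 and 12.65 CPM in libraries labelled null, with no overlap. Its log2 fold change was 0.31 ± 0.11 (SE, adjusted p = 0.0267), and the adjusted p was 0.0806 or 0.0774 without wild-type replicate 1 or 2, and 0.0605 or 0.0873 without null replicate 3 or 4.

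**Figure D3:**
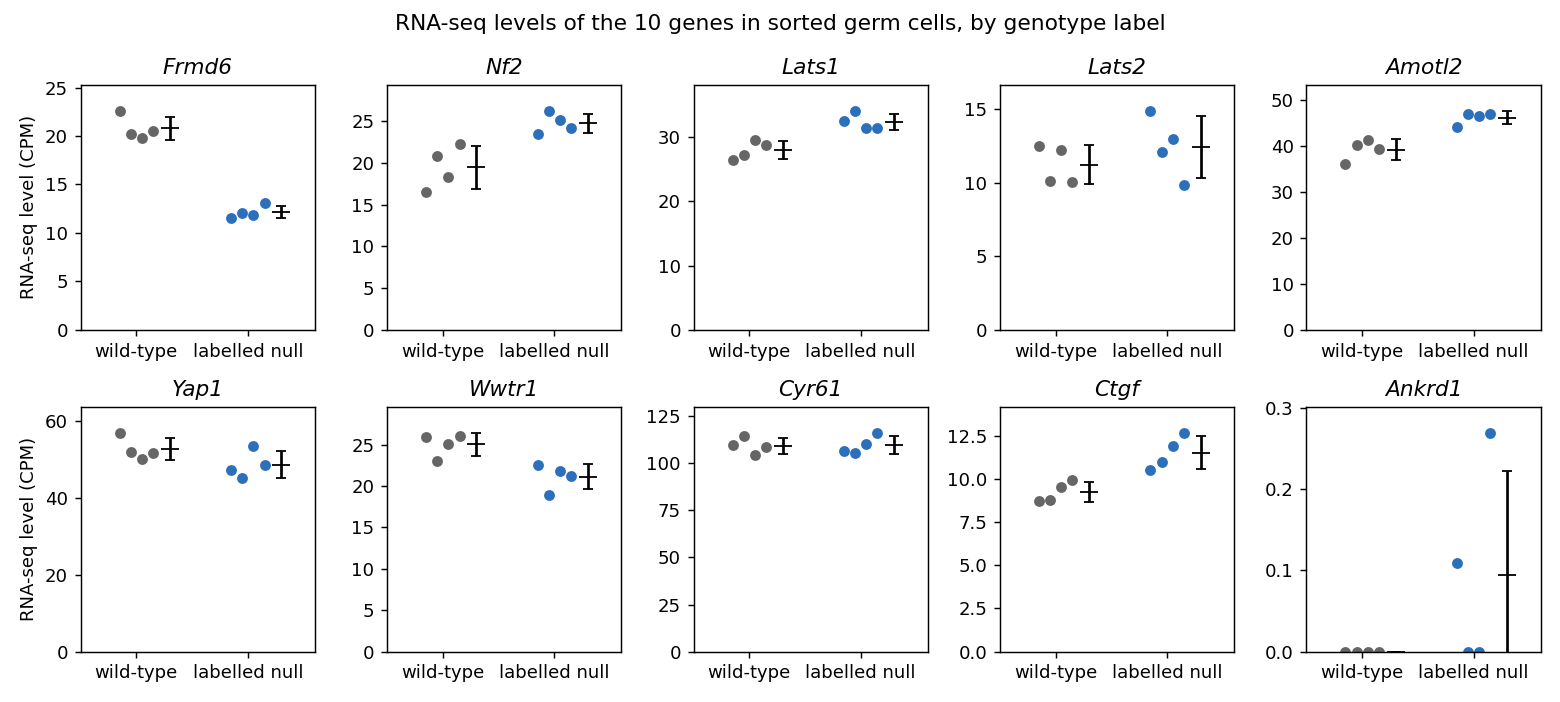
RNA-seq levels (CPM, vertical axes from 0) of the 10 genes in sorted cells by genotype label. Points are libraries, horizontal bars means and error bars SD (n = 4 each). Frmd6 lies at 11.6 to 13.1 CPM in libraries labelled null and at 19.8 to 22.6 CPM in wild-type, whereas Cyr61, Lats2 and Yap1 overlap.

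Other fast-responding genes were lower at 8 h too. Of 14 tested immediate-early genes, which growth factors switch on within minutes, 13 were lower at 8 h than at 0 h with Rhox10-ERT2, 10 were lower with Ctrl, and 11 changed differently between the vectors by the F-test, all toward lower levels, where 2.39% of all genes passed that test. Among them Fos fell by 4.01 on the log2 scale with Rhox10-ERT2 and by 3.24 with Ctrl, and Fosb fell by 5.26 and by 2.39. The summed level of the list went from 3496.6 and 3546.5 CPM at 0 h to 1085.4 and 1102.3 CPM at 8 h with Rhox10-ERT2, and from 2275.3 and 2342.8 CPM to 1127.9 and 1169.8 CPM with Ctrl. Fibroblast and peritubular markers moved the same way, from 1967.7 and 2020.1 CPM at 0 h to 1182.6 and 1214.6 CPM at 8 h with Rhox10-ERT2, and from 1465.3 and 1590.6 CPM to 1115.7 and 1167.3 CPM with Ctrl. Of these 9 markers 5 were lower at 8 h with Rhox10-ERT2 and 3 with Ctrl, and their median change of the vector difference from 0 to 8 h was -0.38. The part of these movements in the changes of Cyr61, Ctgf and Ankrd1 was not tested. Over all genes, 4.06% were lower at 8 h with Rhox10-ERT2 and 2.68% with Ctrl, and 16.8% differed between vectors at 8 h.

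Counted over the 9 genes other than Frmd6, the genotype comparison tested 8 and called 5, namely Nf2, Lats1, Amotl2 and Ctgf as higher and Wwtr1 as lower. Over all 13538 genes tested 37.5% were called, 18.6% as higher and 18.9% as lower, and the list was drawn up with such results known, so nothing is read from the count. It was 2 with DESeq2 (Nf2 and Amotl2), where 2980 of 13538 genes were called. It was 3 without wild-type replicate 1, where 4600 of 13897 were, and 8, all higher, with germline scaling, where 12122 of 13538 were. In the GS cells at 0 h 1 of the 9 was called (Wwtr1), where 10.9% of 20642 genes were, and 4 of the 9 without Ctrl 0.5 h replicate 2, where 17.2% of genes were. The mean over 0.5 to 8 h called 7 of the 9, with Wwtr1, Yap1, Lats1 and Lats2 higher and Nf2, Amotl2 and Ankrd1 lower, where 37.1% of genes were called, 18.7% higher and 18.4% lower. The count was 4 without Ctrl 4 h replicate 1 and without Ctrl 8 h replicate 2. Without Ctrl 0.5 h replicate 2 it was 8, with Ctgf added as higher (0.26 ± 0.089, adjusted p = 0.0157, against 0.45 ± 0.27 and 0.210 with all libraries). Without replicate 1, which leaves the outlying library alone in its group, Ctgf stood at 1.22 and Cyr61 at 0.45 and both were called. Lats2, Amotl2 and Ankrd1 missed the threshold without 5, 7 and 20 of the 24 libraries in turn, at adjusted p up to 0.0644, 0.0700 and 0.200, and Ankrd1 moved from -0.24 to -0.016 with germline scaling. Germline scaling also took the mean of Amotl2 to -0.0065 and that of Nf2 to 0.017, so it kept none of the lower calls. The change from 0 h called 2 of the 9 (Amotl2 and Ankrd1), where 2.39% of genes were called. Without Ctrl 0.5 h replicate 2 it called 4, those 2 with Cyr61 and Ctgf, where 7.01% of genes were called. Without Ctrl 0.5 h replicate 1 it called 7, with Nf2, Lats2 and Yap1 added, but 4331 of 22220 genes were called there. That fit leaves Ctrl at 0.5 h with the outlying library alone, assumed to vary like the other groups, so nothing is read from it. Without any 1 of the 4 libraries of 8 h it called 1.

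The 46 other pathway genes, listed by role, were read the same way. In RNA-seq 19 of the 44 tested were called, 11 higher and 8 lower, where 37.5% of all genes were (18.6% higher and 18.9% lower), with a median log2 fold change of 0.083 against 0.0031 for all genes. The upstream layer, which only the targets exceed in number of genes, held 10 of those 19, some higher and some lower. Fat4 and Dchs1, a pair of giant cadherins that bind each other, were higher in libraries labelled null by 0.76 ± 0.069 and 0.68 ± 0.092 (log2, SE, adjusted p = 3.18e-12 and 8.88e-08). Wwc1, which encodes the scaffold KIBRA, was lower by -0.85 ± 0.12 (adjusted p = 4.09e-07), and Ptpn14, a phosphatase that restrains YAP, by -0.55 ± 0.11 (adjusted p = 5.78e-05). Stk4, which encodes the kinase MST1, was lower by -0.51 ± 0.082 (adjusted p = 2.73e-06), and the target gene Rbms3 was higher by 0.68 ± 0.12 (adjusted p = 1.05e-05). With germline scaling 42 of the 44 were called, all as higher, where 12122 of all 13538 genes were called, 12046 of them higher. Wwc1, Ptpn14 and Stk4 then stood at 0.0078, 0.31 and 0.35.

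At 0 h in GS cells 15 of the 46 were called, 12 higher and 3 lower, where 10.9% of all genes were, with a median of 0.15 against 0.0044 for all genes. Of the 16 targets 8 were higher and 1 lower, where 1354 of 20642 genes were higher and 892 lower, and the median of the targets was 0.59. Amotl1, a relative of Amotl2, was higher with Rhox10-ERT2 by 0.75 ± 0.10 (log2, SE, adjusted p = 3.23e-05), the receptor kinase gene Axl by 0.50 ± 0.11 (adjusted p = 0.00267) and Crim1 by 0.54 ± 0.12 (adjusted p = 0.00442). Wwc1 was lower by -0.75 ± 0.14 (adjusted p = 7.5e-04), Dock5 by -0.50 ± 0.11 (adjusted p = 0.00393) and Sav1, the scaffold of the MST kinases, by -1.70 ± 0.48 (adjusted p = 0.0223). Sav1 had 7 to 17 counts in the Rhox10 libraries of 0 h and 39 to 45 in those of Ctrl, and missed the threshold without Ctrl 0 h replicate 1 or 2 (adjusted p = 0.0643 and 0.115) and without Rhox10 0 h replicate 2 (adjusted p = 0.217). The whole count fell to 5 and 7 without Ctrl 0 h replicate 1 and 2, and to 8 without Rhox10 0 h replicate 2, and it was 22 without either Ctrl library of 0.5 h, where 3819 of 22220 genes (replicate 1 left out) and 17.2% (replicate 2 left out) were called. Crim1 missed the threshold without Ctrl 0 h replicate 1 (adjusted p = 0.0554), Axl without Ctrl 0 h replicate 2 (adjusted p = 0.0669), and Dock5 without Ctrl or Rhox10 0 h replicate 2 (adjusted p = 0.0549 and 0.0669).

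Averaged over 0.5 to 8 h 29 of the 46 were called, 20 higher and 9 lower, where 37.1% of all genes were (18.7% higher and 18.4% lower). Among the targets 11 of 16 were higher and 2 lower. Igfbp3, which encodes a binder of insulin-like growth factors, was higher by 1.59 ± 0.13 (log2, SE, adjusted p = 6.26e-10), Crim1 by 0.67 ± 0.053 (adjusted p = 7.25e-10) and Amotl1 by 0.59 ± 0.047 (adjusted p = 8.49e-10). Wwc1 was lower by -0.55 ± 0.060 (adjusted p = 1.18e-07), Dock5 by -0.37 ± 0.049 (adjusted p = 1.96e-06) and the TEAD gene Tead2 by -0.32 ± 0.040 (adjusted p = 1.05e-06). With germline scaling Tead2 stood at -0.091 and was not called (edgeR adjusted p = 0.134). Wwc1 was thus lower in both assays under composition scaling, in the cells given RHOX10 and in those labelled null, though not in RNA-seq with germline scaling (0.0078). The change from 0 h called 2 of the 46. Tead1, another TEAD gene, went from 0.32 above Ctrl at 0 h to -0.24 at 8 h, a change of -0.57 ± 0.11 (adjusted p = 5.87e-04), and Rbms3 changed by -1.07 ± 0.21 (adjusted p = 0.00203). Over all genes 2.39% were called. The count was 7 without Ctrl 0.5 h replicate 2, where 7.01% of genes were called, and 19 without its replicate 1, where 4331 of 22220 were.

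**Figure D4:**
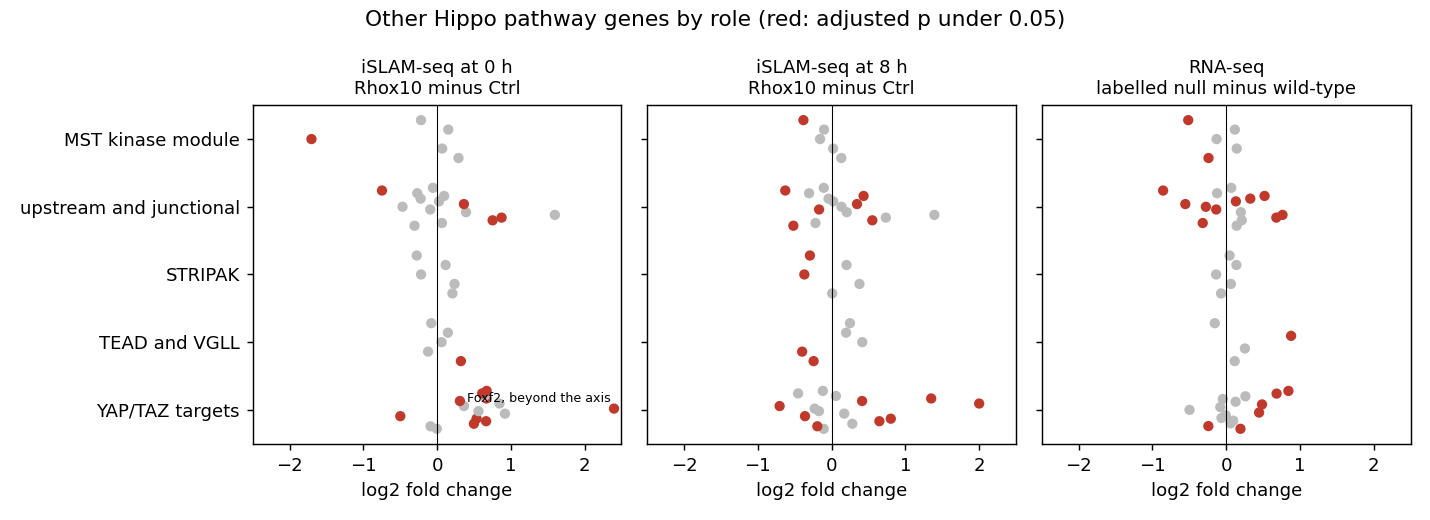
Log2 fold changes of the 46 other pathway genes by role, for Rhox10 minus Ctrl at 0 h and 8 h and for labelled null minus wild-type. Each point is a gene, red where the adjusted p is under 0.05. At 0 h 8 of the 16 targets are called higher, as are 1354 of all 20642 genes. At that time Foxf2, with 0 counts in both Ctrl libraries and 7 and 8 counts in the Rhox10 libraries, lies beyond the axis.

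Levels of the 10 genes in the sorted cells can be ranked per length of gene model, as RPKM (CPM per kilobase). In wild-type, Cyr61 led with 54.0 ± 2.01 RPKM (SD, n = 4). Amotl2 (6.23 ± 0.351), Yap1 (5.70 ± 0.318) and Wwtr1 (5.23 ± 0.292) followed, with ranges that overlap from each to the next. Lats1 (3.83 ± 0.192) came below them with no overlap, and then Frmd6 (3.25 ± 0.190), Ctgf (3.22 ± 0.203) and Nf2 (2.86 ± 0.374), again overlapping in turn. Lats2 (1.61 ± 0.188) and Ankrd1 (no counts) were lowest. In the libraries labelled null Frmd6 (1.90 ± 0.0997 RPKM) stood below Nf2 (3.63 ± 0.173) and Ctgf (4.02 ± 0.336) and beside Lats2 (1.78 ± 0.300), whose range it overlapped.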

How the data were processed

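Gene counts for 8 RNA-seq and 24 iSLAM-seq libraries and 1 list of CUT&Tag peaks were used. The authors deposited whole-number counts per gene, not normalized, with no sample columns beyond those of the labels. The submitters' processing notes name STAR 2.5.2b, Subread, featureCounts and DESeq2 with GRCm38 for RNA-seq, limma 3.42.2 with mm10 for iSLAM-seq, and Bowtie2 2.2.5, SAMtools and HOMER with mm10 for CUT&Tag, without roles or order. Whether counting used strand, and whether the iSLAM-seq counts hold all reads or only labelled ones, is not given in the sources used here. The peak list is one list for the factor and carries the peak score the authors deposited.

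The 10 genes and every gene list were chosen with earlier results of these data known. Counts were fitted over all genes that passed the low-count filter with edgeR 4.0.16 (quasi-likelihood, TMM scaling, R 4.3.3), Benjamini-Hochberg adjusted over all of them and called at 0.05. Removing genes above 1% of an RNA-seq library, among them Gm42418, was an alternative. RNA-seq compared labels, and iSLAM-seq compared vectors at each time, averaged over 0.5 to 8 h, and by an F-test of change from 0 h. CPM use the same scaling. In each comparison the text names up to 3 other pathway genes per direction with the smallest adjusted p. Likeness to Frmd6 is Pearson's r on log2(CPM + 1). The rule names the 5 genes most like it, of which 1 is not reported here. Fits were tested on data simulated without an outlying library, so that test does not bear on the Ctrl pair at 0.5 h. The smallest depth was 6602089 counts.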

Additional observations from a re-analysis of the deposited data

Results flagged for a closer look

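The difference between Rhox10-ERT2 and Ctrl changed with time for 4 of the listed genes, 2 of the 9 Hippo genes tested and 2 of the 46 other pathway genes, by the interaction F-test of edgeR, which passed for 2.39% of all genes. Its log2 change from 0 to 8 h was -1.05 for Amotl2, -1.72 for Ankrd1, -0.57 for Tead1 and -1.07 for Rbms3, each toward lower levels with Rhox10-ERT2. Of 31 groups of 4 values examined for a library far from the rest, 0 stood out, where chance gives about 1.55.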

How the results depend on the processing

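With library totals Yap1 and Wwtr1 stood at 0.23 and 0.10 in RNA-seq. The RNA-seq comparison then called 32 other pathway genes, 31 of them higher, where 7189 of 13538 genes were called higher. With germline scaling it called 8 of the 9 Hippo genes and 42 other pathway genes, and Frmd6 (0.084), Yap1 (0.75), Wwtr1 (0.62), Wwc1 (0.0078), Stk4 (0.35) and Ptpn14 (0.31) turned upward. In iSLAM-seq that scaling called 5 Hippo and 24 other genes at 0 h, and Nf2 averaged 0.017. It split all RNA-seq calls into 12046 higher and 76 lower, and the 0 h calls into 3101 and 127 against 1354 and 892. DESeq2 called 2 Hippo and 12 other genes in RNA-seq and 4 other genes for the change from 0 h, over all genes 2980 and 821. Without a low-count filter 4 Hippo genes were called at 0 h, and 4 Hippo and 4 other genes for the change. Over all 37626 genes of that fit 2247 were called at 0 h and 1002 for the change. With all 0.5 h libraries left out, chosen after seeing the data, the Hippo and other counts were 4, 4 and 7. Over all 20362 genes of that fit 3764 were called at 0 h and 1496 for the change. A score above the median left 3 genes with a peak. The causes were not tested.

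Leaving out each library in turn gave 3 to 5 Hippo and 16 to 20 other genes in RNA-seq, 1 to 4 and 5 to 22 at 0 h, 4 to 8 and 27 to 33 for the mean, and 1 to 7 and 2 to 19 for the change. The number called over all genes moved between these fits too, from 4468 to 4687 in RNA-seq. In iSLAM-seq the top of each range was reached without Ctrl 0.5 h replicate 1, where the most genes were also called over all genes. The spread is therefore not particular to the listed genes. Each iSLAM-seq fit leaves 1 library in a group, so nothing is read from its counts. Over all genes same-numbered libraries did not deviate together (RNA-seq correlations -0.0192 to 0.014, iSLAM-seq -0.0591 to 0.0568). Yet Cyr61 and Ctgf were higher in replicate 1 than in replicate 2 at every iSLAM-seq time but 2 h with Ctrl. The other Hippo genes showed no such order. Whether the numbers pair samples is therefore not settled. With the replicate block 5 Hippo genes were called in RNA-seq, 1 at 0 h, 6 for the mean (Ankrd1 at adjusted p = 0.0523 in edgeR) and 2 for the change. Ankrd1 had 0 to 2 counts a library in RNA-seq, too few to fit.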
